A study of Rattus norvegicus with 6 samples.

Results

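The 6 chemokine genes Ccl2 (ENSRNOG00000007159), Ccl5 (ENSRNOG00000010906), Cxcl1 (ENSRNOG00000002802), Cxcl9 (ENSRNOG00000022242), Cxcl10 (ENSRNOG00000022256) and Cxcl11 (ENSRNOG00000022298) were followed through 6 RNA-seq libraries. The paper describes the material as rat vascular smooth muscle cells, or VSMCs, the contractile cells of the middle layer of arteries. The chemokine genes are 6 of 13304 genes and unnamed loci in the deposited tables, and were found in them by their identifiers. The set was drawn up with earlier results of these data known, so its counts are a description and not those of an unselected list. The libraries were 2 of control cells and 4 of cells with interference against SLC2A10, the gene of glucose transporter GLUT10, 2 libraries for each of 2 interference sequences. The sequences are called 2 and 3 after the number in the sample titles (SiRNA-GLUT10-2 and SiRNA-GLUT10-3). All 6 libraries carry the strain label SD and the tissue label aorta. The controls are labelled wild type and the others SLC2A10-/-, whereas the methods of the study describe short hairpin RNA virus or control virus in cells cultured from the aorta of male Sprague-Dawley rats, and the labels give a medium with fetal bovine serum. Knockdown and cells are used here in the sense of those methods. The extraction text of the labels, however, speaks of frozen aorta and the design text of mice. Which material was sequenced is not settled here. No age is given. The labels do not say whether the 2 replicates of a group were separate cultures, so the p-values rest on library-to-library spread alone, possibly of technical origin.

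Chemokines are small secreted proteins that draw leukocytes along a gradient by way of receptors on the leukocyte surface. Cxcl9, Cxcl10 and Cxcl11 share the receptor CXCR3 of activated T cells and natural killer cells, and are classical interferon targets. Ccl5 draws T cells and monocytes, Ccl2 draws monocytes through CCR2, and Cxcl1 draws neutrophils through CXCR2. VSMCs make such chemokines when cytokines or pattern-recognition receptors activate them, with NF-kappaB a common inducer of the family.

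The values are FPKM, fragments scaled by transcript length and library size, so levels of different genes can be set side by side. The level of a gene was the larger of its summed transcript starts and its summed transcript ends. A gene with no event in a library is given here as not listed and entered the test at 0. The 6 libraries listed 11431 to 11701 genes and loci, with a median FPKM of 6.65 to 7.09 among them. Over the tested genes and loci the 2 controls correlated at 0.968, a control and a knockdown library at 0.902 to 0.922, and the knockdown libraries with one another at 0.949 to 0.971. The lowest of these last values was between replicate 2 of sequence 3 and replicate 2 of sequence 2. Transcript starts numbered 12837 in replicate 2 of sequence 3, fewer than the 13305 to 13826 of the others.

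In the coordinates of the deposited tables, whose genome build is named in none of the sources used, Cxcl11, Cxcl10 and Cxcl9 follow one another on the forward strand of chromosome 14 (17195014 to 17198291, 17210733 to 17212930 and 17228856 to 17235872). Cxcl1 lies on the reverse strand of the same chromosome (18743685 to 18745457). Ccl2 lies on the forward strand of chromosome 10 (69412017 to 69413870) and Ccl5 on its reverse strand (70739800 to 70744315). The distance between the first bases of Cxcl11 and Cxcl10 was 15.7 kb, and of Cxcl10 and Cxcl9 18.1 kb. In RefSeq's GRCr8 annotation the genes of these names lie 15.3 kb and 18.1 kb apart, on the same chromosome and in the same order. Ccl2 and Ccl5 lie 1327.8 kb apart in the tables and 1317.3 kb apart in GRCr8. For each gene the tables held only transcript starts and ends, with 1 start each, and no exon skipping or intron retention event.

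The sequence before the start is shown for Cxcl10, Cxcl11 and Cxcl9, the neighbours whose levels fell, and for Cxcl1, which rose. The sequences are RefSeq's, from GRCr8, and cover the 250 bases before the annotated start, 5′ to 3′ on the strand of the gene, at chr14:15988816-15989065 (+), chr14:15973478-15973727 (+), chr14:16006916-16007165 (+) and chr14:17479322-17479571 (-). Of the 6 genes 4 were matched in the promoter table, by symbol. Ccl2 and Ccl5 were not among them. Cxcl11 spanned 3278 bases in the deposited coordinates and 2776 in GRCr8, so its annotated start may differ from the start in these data. Whether its window precedes the start of the measured transcript was not tested. Capitals mark matches, on either strand, to the kappaB pattern bound by NF-kappaB and to the interferon-stimulated response element (ISRE) core GAAANNGAA.
Cxcl10: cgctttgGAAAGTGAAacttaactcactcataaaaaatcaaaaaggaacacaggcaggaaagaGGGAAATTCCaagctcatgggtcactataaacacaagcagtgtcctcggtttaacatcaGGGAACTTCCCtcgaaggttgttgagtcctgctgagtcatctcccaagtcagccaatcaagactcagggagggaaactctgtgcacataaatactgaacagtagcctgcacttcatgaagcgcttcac
Cxcl11: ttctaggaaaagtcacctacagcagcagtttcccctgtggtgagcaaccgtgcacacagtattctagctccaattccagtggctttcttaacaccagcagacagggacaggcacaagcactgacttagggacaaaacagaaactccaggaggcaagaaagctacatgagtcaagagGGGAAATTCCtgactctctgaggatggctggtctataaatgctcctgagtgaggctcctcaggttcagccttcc
Cxcl9: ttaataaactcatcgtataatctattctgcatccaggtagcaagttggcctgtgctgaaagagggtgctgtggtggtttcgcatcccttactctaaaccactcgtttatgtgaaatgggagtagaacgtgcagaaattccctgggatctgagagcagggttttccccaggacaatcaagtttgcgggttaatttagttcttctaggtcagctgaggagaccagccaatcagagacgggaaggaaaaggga
Cxcl1: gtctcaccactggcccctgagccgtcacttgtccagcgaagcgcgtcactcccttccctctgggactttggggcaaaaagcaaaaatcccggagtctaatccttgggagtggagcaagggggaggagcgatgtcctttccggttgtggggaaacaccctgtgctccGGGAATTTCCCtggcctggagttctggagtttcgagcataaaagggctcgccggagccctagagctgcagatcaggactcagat

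The kappaB pattern was found in 3 of the 4 promoters, those of Cxcl10, Cxcl11 and Cxcl1, and in 6.33% of all 33469 RefSeq promoters of the same length. In Cxcl10 it lay at 187 to 178 bases before the start and again at 128 to 119, where a match on the other strand is shifted by 1 base. In Cxcl11 it lay at 74 to 65, and in Cxcl1 at 84 to 75, again with a shifted match on the other strand. The ISRE core was found in 1 promoter, that of Cxcl10, at 243 to 235 bases before the start, and in 8.12% of all promoters. The AP-1 site TGANTCA was found in Cxcl10 and Cxcl11 and in 6.34% of all promoters, and the interferon-gamma site core TTCNNNGAA in Cxcl11 and in 7.67%. The letters TATAAA of the TATA element lay at 162 to 157 bases before the start in Cxcl10 and at 41 to 36 in Cxcl11. They were found in 12.9% of all promoters. None of the 5 motifs was found in these 250 bases of Cxcl9, which says only that these letters are not in this window. The 3 genes that carried a kappaB match included 2 that fell and 1 that rose. A match is a description of the sequence, and binding was not measured.

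The first question was how the chemokines differed between all 4 knockdown libraries and the 2 controls. Cxcl10, Cxcl11, Cxcl9 and Ccl5 fell and Cxcl1 rose, by limma on log2(FPKM + 1) at an adjusted p under 0.05. Ccl2 was lower in all 4 knockdown libraries but did not pass that limit. Thus 4 of 6 genes were called lower, where 2.83% of all 10558 tested genes and loci were, and 1 of 6 was called higher, where 2.27% were. The median log2 change of the 6 genes was -3.72, against 0.0819 over all tested genes and loci. The first of these medians lies between Cxcl9 (-3.74) and Ccl5 (-3.70) and rests on these genes, so it is a description only. All 6 passed the filter, which asked for 2 libraries with an FPKM of 1 or more, but Cxcl9 and Ccl5 passed it through the controls alone and Cxcl11 through the controls and 1 library of sequence 3, so their differences were in part set by the filter. In bulk RNA, fewer cells of a type and less RNA per cell cannot be told apart.

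**Figure D1:**
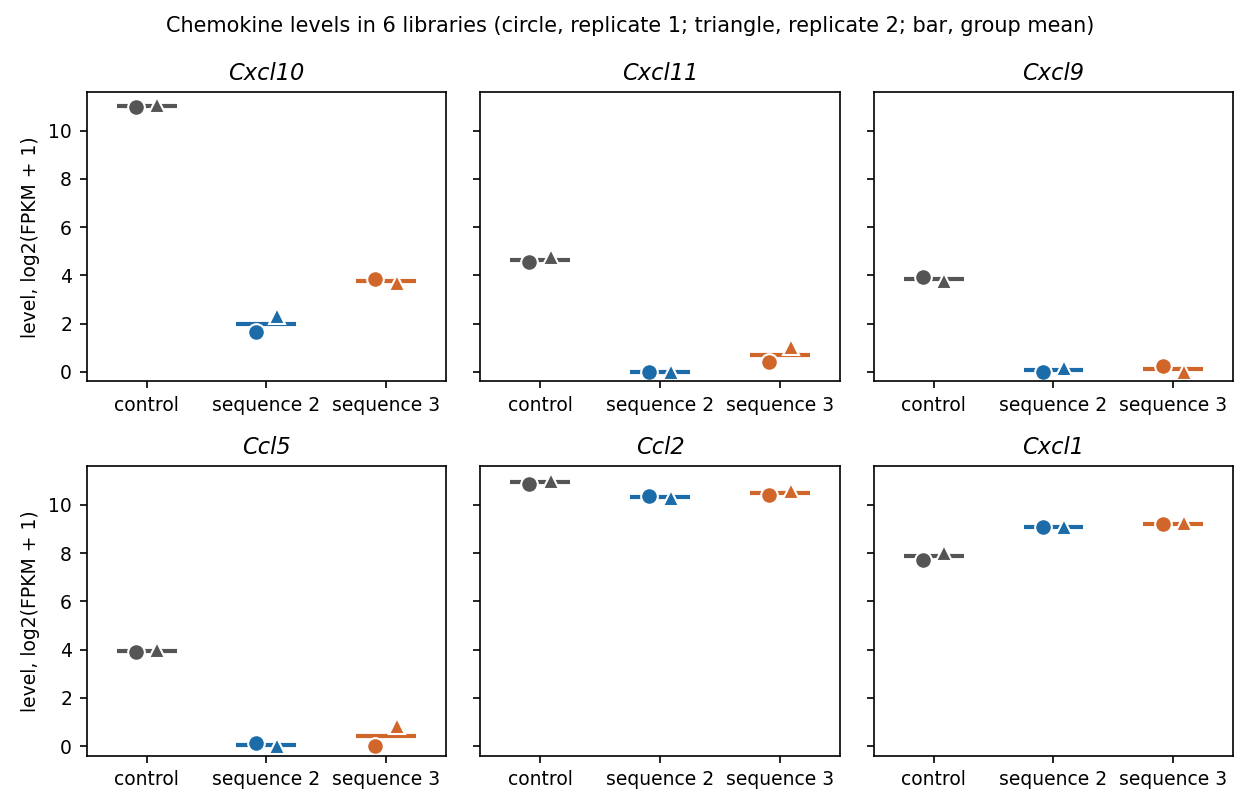
Level of each chemokine as log2(FPKM + 1), vertical axis, in the control, sequence 2 and sequence 3 libraries, horizontal axis. Circles are replicate 1, triangles replicate 2 and bars the group means. Cxcl10 stands near 11 in the controls and between 1 and 4 in the knockdown libraries, Cxcl11, Cxcl9 and Ccl5 drop to near 0, and Cxcl1 is higher in all 4 knockdown libraries.

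Cxcl10, the most abundant CXCR3 ligand here, had an FPKM of 1990.4 and 2105 in the 2 controls. It had an FPKM of 2.16 and 3.94 with sequence 2 and of 13.3 and 12.0 with sequence 3. The groups did not overlap, and the lowest control was 149.7 times the highest knockdown library. In both controls Cxcl10 ranked 5th of all listed genes and loci, whereas it ranked 8753rd and 7356th with sequence 2 and 3836th and 4162nd with sequence 3. Its mean fell from 2048 ± 81.0 (SD, n = 2) to 7.85 ± 5.62 (SD, n = 4), a 261-fold difference of the means. The log2 fold change of FPKM + 1 was -8.12 with a standard error of 0.19 (adjusted p = 1.64e-05 from limma), and only 2 of the 10558 tested genes and loci had a more negative one.

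Cxcl11, the neighbour of Cxcl10 and the CXCR3 ligand of highest receptor affinity in man, had an FPKM of 22.4 and 26.0 in the controls. With sequence 2 neither library listed it, and with sequence 3 the values were 0.309 and 1.02. The lowest control was thus 22.0 times the highest knockdown library. The log2 fold change of FPKM + 1 was -4.30 with a standard error of 0.21 (adjusted p = 0.00022 from limma).

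Cxcl9, the other CXCR3 ligand, had an FPKM of 14.1 and 12.5 in the controls. It was listed at 0.113 in replicate 2 of sequence 2 and at 0.169 in replicate 1 of sequence 3, and was not listed in the other two knockdown libraries. Each sequence thus had 1 library in which Cxcl9 was listed and 1 in which it was not. The log2 fold change of FPKM + 1 was -3.74 with a standard error of 0.17 (adjusted p = 0.000152 from limma).

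Ccl5, the chemokine also known as RANTES, had an FPKM of 14.0 and 14.7 in the controls, close to Cxcl9. It was listed at 0.0892 in replicate 1 of sequence 2 and at 0.767 in replicate 2 of sequence 3, and was not listed in the other two. The highest knockdown library was the one with the fewest transcript starts, and the lowest control was still 18.3 times as high. The log2 fold change of FPKM + 1 was -3.70 with a standard error of 0.26 (adjusted p = 0.000992 from limma). Changes of Ccl5, Cxcl9 and Cxcl11 are understated on this scale, since a value of 1 is added to levels that lie mostly below 1. With a pseudocount of 0.1 the log2 fold changes were -6.16 for Ccl5, -6.43 for Cxcl9 and -6.54 for Cxcl11.

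Cxcl1, the neutrophil chemokine, went the other way. It had an FPKM of 209 and 257 in the controls, 546 and 534 with sequence 2 and 583 and 608 with sequence 3. The 4 knockdown values lay close together, between 534 and 608, and all above both controls. The mean rose from 233 ± 33.8 (SD, n = 2) to 568 ± 34.1 (SD, n = 4), or 2.44-fold, and the log2 fold change was 1.29 with a standard error of 0.12 (adjusted p = 0.00305 from limma). Its rank among listed genes and loci was 203 and 190 in the controls and between 92 and 104 in the knockdown libraries.

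Ccl2, the monocyte chemokine also known as MCP-1, had an FPKM of 1850.1 and 2048 in the controls, 1308 and 1238 with sequence 2 and 1351 and 1503 with sequence 3. The groups did not overlap, but the gap was small, since the lowest control was 1.23 times the highest knockdown library. The mean was 1949 ± 140.2 (SD, n = 2) in the controls and 1350.1 ± 112 (SD, n = 4) in the knockdown libraries, a log2 fold change of -0.53 with a standard error of 0.12 (adjusted p = 0.0667 from limma). After quantile normalization, which makes the distribution of values alike in all libraries, the log2 fold change was -0.64 and the adjusted p from limma 0.00138. Ccl2 remained among the most abundant transcripts, ranking 6th in both controls and 16th to 18th in the knockdown libraries.

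Of the 6 genes, 5 thus had all 4 knockdown libraries below both controls, where 11.2% of the tested genes and loci did, and 1 had them above both controls, where 22.6% did. For Cxcl9 and Ccl5, which passed the filter through the controls alone, this separation was fixed by the filter. The calls of Cxcl10 and Cxcl1 held under each of 23 alternative settings. The calls of Cxcl11, Cxcl9 and Ccl5 held under each of the 22, 20 and 20 settings that could be fitted to them. The remaining settings removed the genes by their filter, so these counts are a description. Those were the stricter filter of 4 libraries for each of these genes. For Cxcl9 and Ccl5 they were also the fits without a control library in which the filter was applied anew. Where a setting left 1 control library, the spread came from the knockdown groups only, and that control was assumed to vary as they did. The targeted gene SLC2A10 was not analysed here, because the gene identifiers were not paired with names, and each direction therefore rests on the sample labels.

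The second question was whether both sequences gave these differences. The 2 comparisons use the same control libraries and are set side by side for that reason. With sequence 2, Cxcl10, Cxcl11, Cxcl9 and Ccl5 were called lower and Cxcl1 higher, 4 and 1 of 6 genes, where 2.42% and 1.14% of all tested genes and loci were. With sequence 3 the calls were of the same 5 genes in the same directions, where 2.40% of all tested genes and loci were called lower and 1.81% higher. Here too, Cxcl9 and Ccl5 entered the fit through the controls alone, and Cxcl11 through them and 1 library of sequence 3. Their calls with either sequence were thus in part set by the filter, and these counts are a description.

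**Figure D2:**
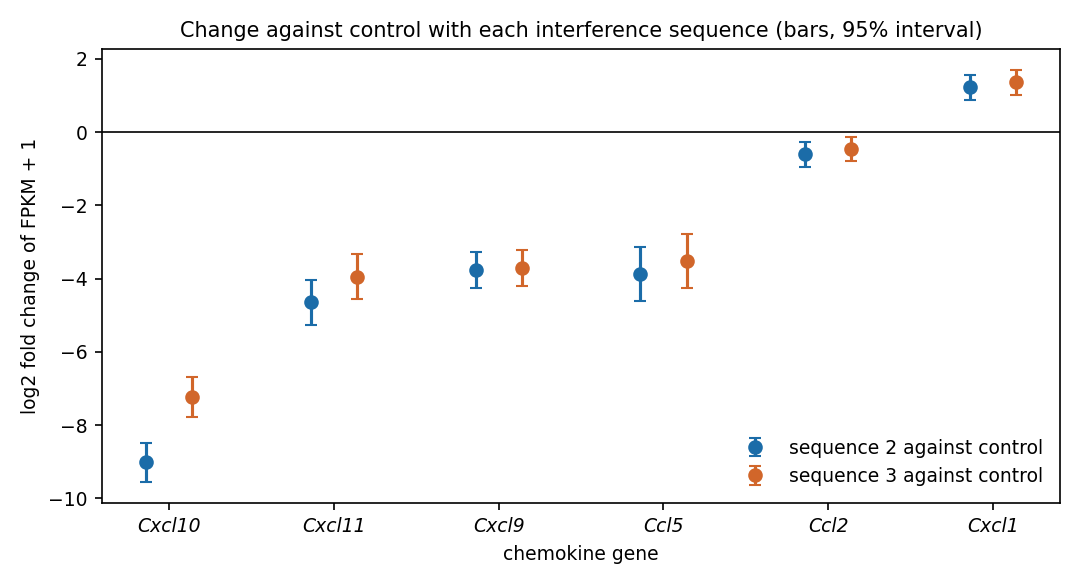
Log2 fold change of FPKM + 1 against control, vertical axis, of each chemokine, horizontal axis, with sequence 2 in blue and sequence 3 in orange. Bars are 95% intervals from limma. Cxcl10 lies at -9.02 and -7.23, Cxcl11, Cxcl9 and Ccl5 between -4.65 and -3.53, Ccl2 at -0.61 and -0.45, and Cxcl1 at 1.22 and 1.36.

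For Cxcl10 the log2 fold change was -9.02 with sequence 2 (limma, standard error 0.22 and adjusted p = 2.63e-05) and -7.23 with sequence 3 (limma, standard error 0.22 and adjusted p = 6.32e-05). In FPKM the control mean was 672 times the mean of sequence 2 and 162 times that of sequence 3. For Cxcl9 the changes were nearly equal, -3.76 with sequence 2 and -3.72 with sequence 3. For Cxcl11 they were -4.65 and -3.95, the first against libraries in which it was not listed. For Ccl5 they were -3.88 (adjusted p = 0.00171 from limma) and -3.53 (adjusted p = 0.00264 from limma). With a pseudocount of 0.1 the call of Ccl5 with sequence 3 was lost, with an adjusted p of 0.0584 from limma. It was also lost without control replicate 1 or 2 when the tested genes were kept as they were, with an adjusted p of 0.0507 and 0.0526.

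Cxcl1 was 2.32-fold higher than control with sequence 2 (log2 fold change 1.22, adjusted p = 0.00817 from limma) and 2.56-fold higher with sequence 3 (log2 fold change 1.36, adjusted p = 0.00535 from limma, both with a standard error of 0.14). The call with sequence 2 was lost without control replicate 1 and without replicate 1 or 2 of sequence 2, with an adjusted p from limma of 0.0718, 0.0871 and 0.0845. The call with sequence 3 was lost without control replicate 1 (adjusted p = 0.0508 from limma). In all these fits Cxcl1 was higher with a log2 fold change of 1.07 to 1.24. Ccl2 was not called with either sequence, with log2 fold changes of -0.61 (adjusted p = 0.085 from limma) and -0.45 (adjusted p = 0.137 from limma).

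Compared directly, sequence 3 and sequence 2 differed at 0 of the 6 chemokines by limma at an adjusted p under 0.05, where 0.0663% of all tested genes and loci were called in either direction. At an unadjusted p under 0.05 there were 2, Cxcl10 and Cxcl11, where 5.44% of all tested genes and loci passed. Cxcl10 was 4.16-fold higher with sequence 3 than with sequence 2. This was a log2 difference of 1.79 (95% interval 1.25 to 2.33, adjusted p = 0.113 from limma). For Cxcl11 the log2 difference was 0.70 (95% interval 0.09 to 1.31, adjusted p = 0.735 from limma). It was 2.76 with a pseudocount of 0.1, 1.15 with 0.5 and 0.19 from transcript ends alone, and was called in none of these. The intervals for the other genes were -0.45 to 0.52 for Cxcl9, -0.39 to 1.08 for Ccl5, -0.17 to 0.50 for Ccl2 and -0.20 to 0.48 for Cxcl1. An uncalled gene is not shown to be equal between the sequences.

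The order of the levels changed with the knockdown. In the controls Cxcl10 and Ccl2 stood at the top and did not differ beyond their spread, with ranges of 1990.4 to 2105 and 1850.1 to 2048. Cxcl1 followed at 209 to 257 and Cxcl11 at 22.4 to 26.0, and the ranges of Ccl5 and Cxcl9 overlapped at the bottom. In every knockdown library Ccl2 was highest, then Cxcl1, then Cxcl10. Cxcl11, Cxcl9 and Ccl5 followed at 1.02 or less and could not be ordered, since each was not listed in 2 of the 4 libraries.

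The summed level of the 6 chemokines was 4099.8 and 4463 FPKM in the controls and 1776 to 2125 FPKM in the knockdown libraries. This was 1.37% and 1.40% of all summed FPKM in the controls and 0.570% to 0.597% in the knockdown libraries. Cxcl10 made up 48.5% and 47.2% of the chemokine sum in the controls and at most 0.682% in the knockdown libraries. The 4 knockdown libraries had nearly the same make-up, with Ccl2 at 69.4% to 70.7% and Cxcl1 at 28.6% to 30.1%. The level of Ccl2 was 8.86 and 7.99 times that of Cxcl1 in the controls and 2.32 to 2.47 times in the knockdown libraries.

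**Figure D3:**
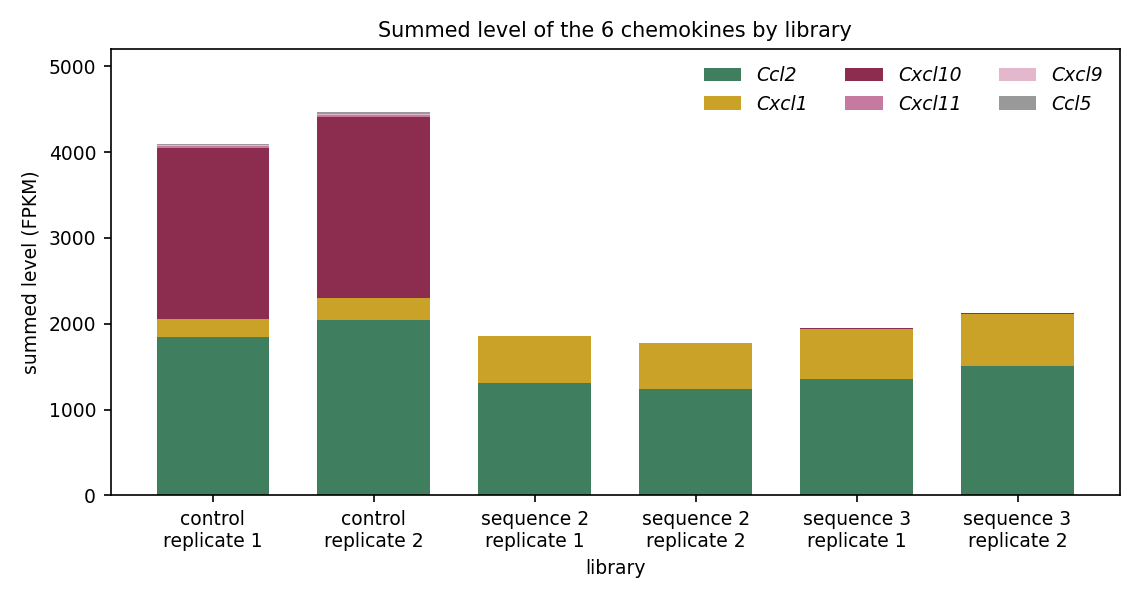
Stacked levels in FPKM, vertical axis, of the 6 chemokines in each library, horizontal axis. The controls reach 4099.8 and 4463 FPKM, close to 50% of it Cxcl10, and the knockdown libraries 1776 to 2125 FPKM, nearly all of it Ccl2 and Cxcl1.

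Genes and loci with any part within 250 kb of a chemokine were compared in the same fit of knockdown against control. Most carry an Ensembl identifier that the tables and RefSeq list do not pair with a name, and 4 identifiers are printed, chosen after their values were seen. Among all tested genes and loci, 2.83% were called lower and 2.27% higher, and the neighbours are too few for their counts to be more than a description. Around Cxcl9, Cxcl10 and Cxcl11, 1 of 5 other tested genes was called lower and 0 higher, and their log2 fold changes lay between -0.86 and 0.17. The 3 CXCR3 ligands, at -8.12 to -3.74, thus stood below the tested genes on both sides. Around Cxcl1, 2 of 5 were called higher and 0 lower.

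Of the 2 higher neighbours of Cxcl1, ENSRNOG00000002843, whose lower end lies 116.6 kb further up the chromosome, had an FPKM of 61.2 and 73.0 in the controls and 275 to 349.9 in the knockdown libraries (log2 fold change 2.21, adjusted p = 0.000209 from limma). The other, ENSRNOG00000028043, had 20.4 and 27.8 in the controls and 40.3 to 53.7 in the knockdown libraries (log2 fold change 0.96, adjusted p = 0.0273 from limma). Both neighbours were picked as called higher, so that they shared the direction of Cxcl1 was set by the choice. Neither overlapped between controls and knockdown, where 22.6% of all tested genes and loci lay above both controls in all 4 knockdown libraries. The uncalled tested neighbours of Cxcl1 went both ways, with log2 fold changes of -0.42, -0.40 and 0.90.

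Around Ccl2, 2 of 3 other tested genes were called lower and 0 higher, but 1 of the 2 passed the filter through the controls alone. The nearest, ENSRNOG00000000239, whose lower end lies 11.1 kb further up the chromosome, had an FPKM of 1149 and 1324 in the controls and 503 to 735 in the knockdown libraries (log2 fold change -1.05, adjusted p = 0.00927 from limma). Its fall passed the limit that Ccl2 itself missed. Around Ccl5, 1 of 6 was called lower and 1 higher. The lower one, ENSRNOG00000011406, had an FPKM of 4.04 and 5.33 in the controls and was not listed in any of the 4 knockdown libraries (adjusted p = 0.00164 from limma). It too passed the filter through the controls alone.

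**Figure D4:**
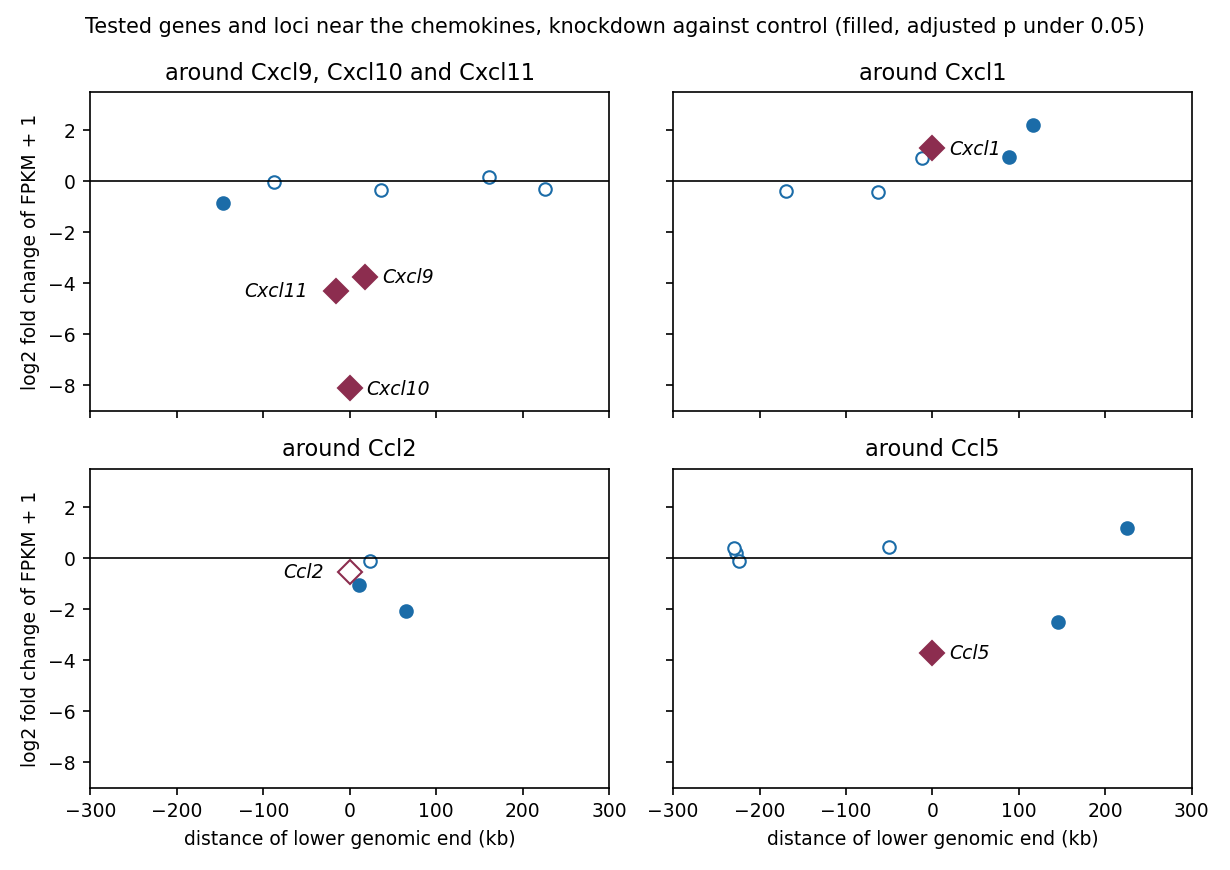
Log2 fold change of FPKM + 1 in knockdown against control, vertical axis, by the distance of the lower genomic end from Cxcl10, Cxcl1, Ccl2 or Ccl5 in kb, horizontal axis, for tested genes and loci within 250 kb. Diamonds are chemokines, circles the others, and filled symbols have an adjusted p under 0.05. Cxcl10 at -8.12, Cxcl11 at -4.30 and Cxcl9 at -3.74 lie below neighbours at -0.86 to 0.17.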

How the data were processed

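RNA of 6 libraries was sequenced by the authors, 2 of control cells and 2 for each of 2 interference sequences against SLC2A10. The authors deposited, for each library, FPKM per transcript start, transcript end, skipping and retention event of assembled loci, with an Ensembl identifier for most. Per the submitters' processing notes, HISAT2 2.0.1 and StringTie 1.0.4 were among the tools, with Trimmomatic 0.30 and HTSeq 0.6.1. Build, annotation and event caller are named in none of the sources used. The extraction text of the labels speaks of frozen aorta and the design text of mice, against rat cells in culture in the paper, and which was sequenced is not settled here.

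Events repeated in a table (1281 to 1634 per library) were used once. Starts and ends were summed per Ensembl identifier, or per locus where there was none, and the larger sum was the level. The 6 gene names came with the identifiers that define the set. None of the 12224 identifiers could be paired with RefSeq's symbols, 0 in all, so the other chemokines, their receptors, signalling genes, cell type markers and SLC2A10, which had been planned, were not analysed here. The files hold no counts. Low values did not fall into steps of whole reads, so depth could not be recovered and counting intervals are left out.

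Features reaching an FPKM of 1 in 2 or more libraries entered the fit. Their log2(FPKM + 1) values were modelled by limma 3.58.1 (R 4.3.3) with a variance trend, 1 mean per group and Benjamini-Hochberg adjustment over all 10558. Tests were two-sided. Knockdown against control is the mean of the 2 sequences minus control. The fit was tested on simulated data. Python 3.11.15 with pandas 2.3.3 read the tables. The text names all 6 genes, plus 4 neighbours chosen after their values were seen. The rule also named the feature most correlated with each gene. The members, lists and tests were chosen with earlier results of these data known. Alternatives were other pseudocounts, filters, scalings, event sums, loci, priors, samples, a replicate block and leaving out each library.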

Additional observations from a re-analysis of the deposited data

Results flagged for a closer look

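Ccl5 in replicate 2 of sequence 3, at an FPKM of 0.767, stood apart from the other 3 knockdown libraries, of which 1 listed it at 0.0892 and 2 did not list it. The gap was 0.884 of the range, above Dixon's 95% limit for 4 values. Of the 6 chemokines this was the 1 with such a gap. About 1 in 20 groups of normally distributed values shows one by chance. With 2 of these values not listed, that share need not hold here. The same library had the fewest transcript starts and the highest level of Cxcl11 among the knockdown libraries, 1.02. Its part in the value of Ccl5 was not tested.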

How the results depend on the processing

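With each library left out in turn, there were 3 to 5 called chemokines in knockdown against control, 2 to 5 with sequence 2, 2 to 5 with sequence 3 and 0 to 0 between the sequences, against 5, 5, 5 and 0 with all libraries. Without a control library the filter removes Cxcl9 and Ccl5, and with a stricter filter of 4 libraries it also removes Cxcl11, which left 2 called genes in each comparison with control. Keeping the genes tested with all libraries, a setting added after seeing the data, gave 3 called with sequence 3 without control replicate 1. At an unadjusted p under 0.05, 2 differed between the sequences, where 5.44% of all tested genes and loci did. The uncalled difference of Cxcl11 between them ran from 0.19 (transcript ends alone) to 2.76 (pseudocount 0.1). With the replicate block 5 were called in knockdown against control. Deviations of same-numbered samples correlated at -0.0707, 0.181 and -0.0861, so the numbers are not taken as pairs.

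Ccl2 was called after quantile normalization alone, at -0.64, -0.63 and -0.66 in the 3 comparisons with control, and its difference between the sequences then turned to -0.03. Uncalled differences between the sequences also turned sign for Cxcl9 without replicate 1 of sequence 2 (-0.04) or replicate 1 of sequence 3 (-0.08), with a range of -0.08 to 0.15 over the libraries left out, and for Ccl5 without replicate 2 of sequence 3 (-0.06), with a range of -0.06 to 0.76. The cause was not tested. All other directions of the 6 genes held.

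Over all tested genes and loci, knockdown gave 299 calls of lower and 240 of higher, 255 and 120 with sequence 2, and 253 and 191 with sequence 3. Leaving out 1 library gave 118 to 345 and 45 to 283, 98 to 269 and 14 to 135, and 98 to 325 and 35 to 237. The replicate block gave 125, 64 and 91 higher, and only the libraries of the comparison gave 75 higher with sequence 3. Limits set by depth could not be computed without counts.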

Other observations

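Cxcl9 had a second transcript end event in control replicate 1 alone, at an FPKM of 2.95 beside 11.1 at the first. The second event spanned 17233562 to 17235872 and the first 17233557 to 17234712, so the second reached further downstream. Cxcl11 had a start but no end in replicate 2 of sequence 3.

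The feature whose log2(FPKM + 1) ran most alike to Ccl2 over the 6 libraries was its neighbour ENSRNOG00000000239, with a Pearson's r of 0.9975. For the other 5 chemokines the highest r was 0.9985 to 0.9996, with 35 to 102 genes and loci at 0.99 or more. The 6 libraries fall into controls and knockdown, and r takes no account of the size of a change, so these values are a description only.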
